A study of Danio rerio with 6 samples.

Results

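miR-451, miR-144 and miR-2188 were followed in follicular cells of zebrafish ovarian follicles in 2 successive phases of yolk deposition. The members were all zebrafish miRNAs of the deposited lists that carry one of these 3 numbers, in any arm. These were 6 of the 289 listed miRNAs: dre-miR-451 and dre-mir-451-p3, dre-miR-144-5p and dre-miR-144-3p, and dre-miR-2188-5p and dre-miR-2188-3p, which come from 3 hairpins. The 3 hairpins were chosen by their normalized counts in the 2 stages, with their fall in stage IIIb already known, so their stage differences and the shifts of their ratios between the stages are described here and not tested.

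Small RNA was sequenced from 6 samples, 3 of stage IIIb and 3 of stage IIIa. Stage IIIb follicles are mid to late vitellogenic, and their oocytes can be induced to mature. Stage IIIa follicles are early vitellogenic, and their oocytes do not mature on the same stimulus. All fish were untreated females from a local supplier, their ages were not stated, and each sample was a pool of follicular cell layers peeled with forceps from the follicles of several fish. The layers are not purified cells, so blood vessels and blood held in them could be part of a sample.

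miR-451 and miR-144 are made from one primary transcript in vertebrate red blood cell precursors, where the factor GATA1 drives it, and both take part in red cell maturation in zebrafish. Most miRNA hairpins are cut by Dicer into a pair of arms, but the short hairpin of miR-451 is cut by Argonaute 2 and its 3′ end is then trimmed. In zebrafish red cells miR-144 represses Dicer, and the red cells of fish keep their nuclei. No messenger RNA was measured in these samples, so the erythroid label could not be checked against globin or other red cell genes. For miR-451 and miR-144 the label rests on this background. miR-2188 is grouped with them under a working label, for which no such background is given here. Fewer red cells in a sample and less miRNA per red cell cannot be told apart in pooled tissue.

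The sequences of the members are shown because the arms are compared with each other below, and the capitals mark the seed, bases 2 to 8 counted from the 5′ end. They are written as DNA, as the authors' files give them.
miR-451: aAACCGTTaccattactgagtt
mir-451-p3: tTTAGTAAtggtaagggttct
miR-144-5p: gGATATCAtcgtatactgtaagt
miR-144-3p: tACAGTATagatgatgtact
miR-2188-5p: aAGGTCCAacctcacatgtcc
miR-2188-3p: cTGTGTGAggttagacctatc
Their lengths were 22, 21, 23, 20, 21 and 21 nt in that order. The 6 seeds differed from one another, and none of the other 283 listed miRNAs had the same bases 2 to 8. Bases 2 to 7 of miR-144-3p recurred in 4 others, miR-101a, miR-101b, miR-199-3p and miR-2184. Their log2 fold changes, stage IIIb over stage IIIa, were 0.63, -0.07, 0.34 and 0.47, with limma adjusted p of 0.484, 0.945, 0.685 and 0.590, so none passed the threshold of 0.05. The listed miRNA nearest in sequence to any member still differed from it at 6 or more positions.

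The miR-451 precursor is shown as the study's sequence table gives it, 60 nt long, first with miR-451 and then with mir-451-p3 in capitals.
precursor, miR-451: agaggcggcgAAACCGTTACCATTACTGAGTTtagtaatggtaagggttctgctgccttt
precursor, mir-451-p3: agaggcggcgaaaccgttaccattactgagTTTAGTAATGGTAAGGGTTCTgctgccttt
miR-451 ran from position 11 to 32 and mir-451-p3 from 31 to 51, so the products overlapped by 2 bases and one precursor molecule cannot give both in full length. RNAfold predicted 25 base pairs around a loop of 4 nt, positions 29 to 32. miR-451 held 16 of the 25 paired bases of the 5′ strand of the stem, the nearest to the loop, and reached through the loop. As separate strands in RNAduplex, miR-144-5p paired with miR-144-3p by 17 base pairs and miR-2188-5p with miR-2188-3p by 15. By the same measure miR-451 paired with mir-451-p3 by 18, so this pairing does not set miR-451 apart from the other hairpins.

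In the RefSeq gene table of assembly GRCz12tu all 3 hairpins lie on chromosome 5. miR-451 and miR-144 are neighbours with 0 genes between them, both inside the gene models LOC137495624 and LOC137495623. miR-2188 lies 873 genes away, of 2111 on the chromosome, within ank1a, whose human counterpart encodes the ankyrin of the red cell membrane skeleton. The labels name the older assembly GRCz11, so no coordinates are given.

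The values are counts that the authors divided by a library size parameter of each sample, called normalized counts here. The totals over the 289 miRNAs were 1819026 to 3166619 in stage IIIb and 1779302 to 2196896 in stage IIIa. Low values of each sample were mostly whole multiples of one step, taken as the worth of 1 read, and all 6 members gave whole reads in every sample within 0.01 read. The reads behind the listed miRNAs were 2575578, 3221540 and 9045233 in stage IIIb replicates 1, 2 and 3, against 1129114, 4005857 and 3823003 in stage IIIa replicates 1, 2 and 3. Values by replicate follow this order throughout.

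miR-451 was the most abundant member in every sample. It had 3875, 2473 and 2427 normalized counts in stage IIIb, against 13294, 24490 and 17619 in stage IIIa. The stages did not overlap, and the lowest stage IIIa sample was 3.43 times the highest stage IIIb sample. The means were 2925 ± 823 in stage IIIb and 18468 ± 5646 in stage IIIa (SD, n = 3 each), so that stage IIIb kept 15.8% of the stage IIIa level. Among the 289 miRNAs, miR-451 ranked 41st, 73rd and 80th from the highest in stage IIIb and 19th, 16th and 18th in stage IIIa.

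The main product of the miR-144 hairpin was its 5p arm. miR-144-5p had 373.6, 251.5 and 126.4 normalized counts in stage IIIb, against 1765, 2140 and 1723 in stage IIIa. Every stage IIIb sample was below every stage IIIa sample, and the 3 stage IIIa samples lay within a range of 1.24-fold, while those of stage IIIb spread over 2.96-fold. The means were 250.5 ± 124 in stage IIIb and 1876 ± 229.8 in stage IIIa (SD, n = 3 each), 13.4% of the stage IIIa level.

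The miR-2188 hairpin also gave mostly its 5p arm. miR-2188-5p had 634.2, 310.4 and 224.4 normalized counts in stage IIIb, against 2980, 3657 and 2438 in stage IIIa. The stages were again apart, with a gap of 3.84-fold between the lowest stage IIIa and the highest stage IIIb sample. The means were 389.7 ± 216 in stage IIIb and 3025 ± 611 in stage IIIa (SD, n = 3 each), 12.9% of the stage IIIa level.

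The minor product of the miR-451 precursor showed the same direction from a lower level. mir-451-p3 had 114.4, 50.6 and 31.9 normalized counts in stage IIIb, from 162, 61 and 91 reads. In stage IIIa it had 587.8, 878.6 and 807.3 normalized counts, from 373, 1602 and 1502 reads. The stages did not overlap, and the stage IIIb mean was 8.66% of the stage IIIa mean, the lowest share of the 6 members.

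miR-144-3p carries the seed shared in part with miR-101. It had 132.8, 81.3 and 39.9 normalized counts in stage IIIb, against 326.2, 1074 and 795.5 in stage IIIa. Here one stage IIIa sample, replicate 1, stood well below the other two samples of its stage, and the gap to the highest stage IIIb sample narrowed to 2.46-fold, the smallest among the members. That library also had the fewest reads, and its value rested on 207 of them. The stage IIIb mean was 11.6% of the stage IIIa mean.

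miR-2188-3p was the rarest member. It had 12.0, 17.4 and 13.7 normalized counts in stage IIIb, from 17, 21 and 39 reads. In stage IIIa it had 189.1, 161.2 and 134.9 normalized counts, from 120, 294 and 251 reads. The gap between the stages was the widest of the members at 7.74-fold, with a stage IIIb mean of 8.88% of the stage IIIa mean.

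**Figure D1:**
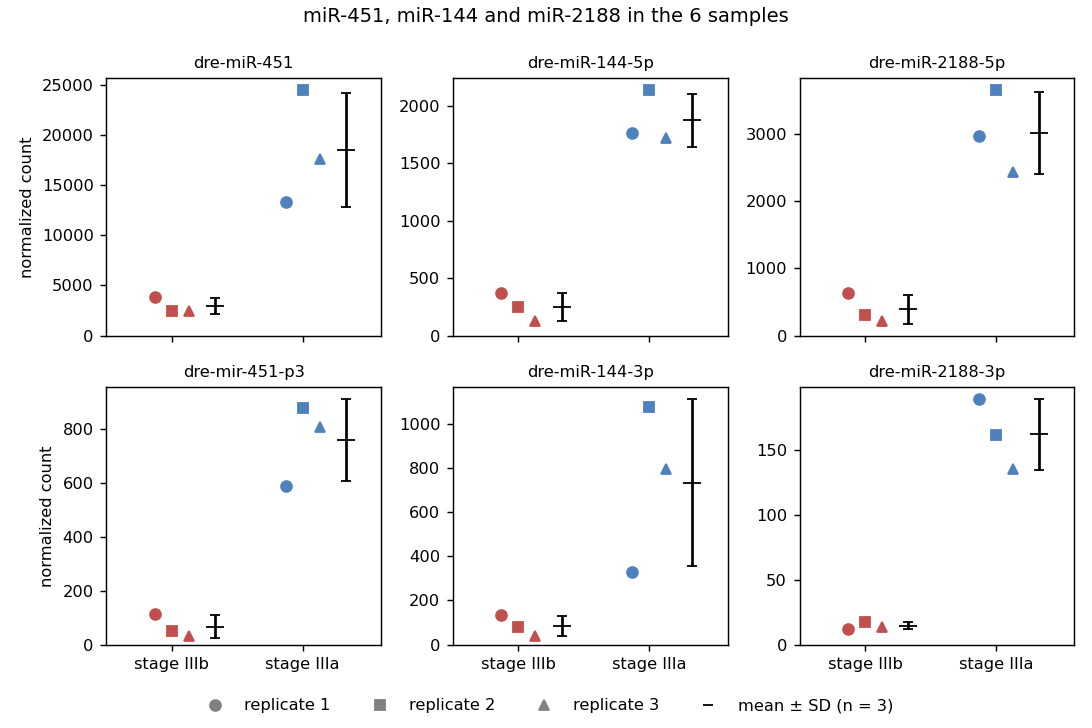
Normalized counts (linear axis from 0, 1 panel per member) in the 3 stage IIIb (red) and the 3 stage IIIa (blue) samples, 1 point per sample with a marker for each replicate number, and the stage mean ± SD (n = 3) as a black bar. For each member the stage IIIb points lie below all stage IIIa points, with the narrowest gap for miR-144-3p (2.46-fold) and the widest for miR-2188-3p (7.74-fold).

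All 6 members had every stage IIIb sample below every stage IIIa sample, as did 7.96% of all 289 miRNAs, while 11.8% had every stage IIIb sample above. The fit across all miRNAs (limma on log2(normalized count + 1)) called 13 of 289 (4.5%) in both directions at the adjusted threshold of 0.05. It called 6 (2.08%) as lower, and these 6 were the members. Since the same contrast chose the members, these shares are a description. Without stage IIIa replicate 2 miR-144-3p was no longer called, and an equal-variance test of the untransformed counts, adjusted alike, called 0 of the 289, with 16 lower and 16 higher at an unadjusted p under 0.05. Their log2 fold changes, stage IIIb over stage IIIa, were -2.65 (SE 0.35) for miR-451, -3.69 (SE 0.48) for mir-451-p3, -3.03 (SE 0.42) for miR-144-5p, -3.09 (SE 0.55) for miR-144-3p, -3.07 (SE 0.42) for miR-2188-5p and -3.41 (SE 0.52) for miR-2188-3p. The median was -3.08, beside 0.15 over all 289 miRNAs. A fold change on this scale is smaller than the ratio of counts for low values such as those of miR-2188-3p. With the samples rescaled to equal totals the members' median was -3.39 and that of all miRNAs -0.16, so the members' median relative to that of all miRNAs was -3.24 on either scale. The members took ranks 4 to 8 and 10 from the lowest fold change, below which lay low-count miRNAs such as the predicted PC-3p-77075_73 (-5.50, limma adjusted p = 0.0690).

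**Figure D2:**
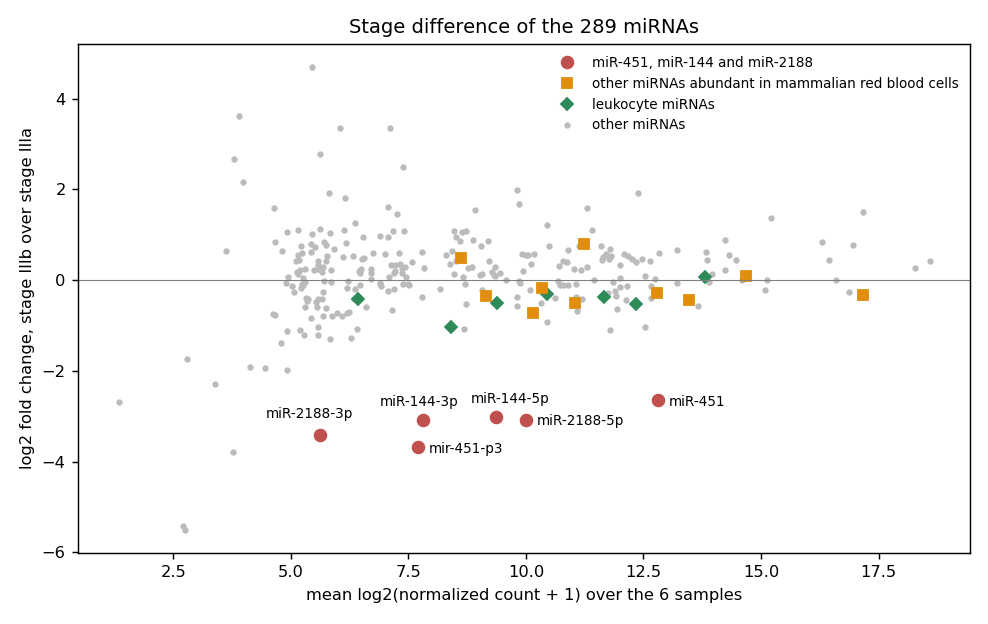
Log2 fold change, stage IIIb over stage IIIa, against the mean log2(normalized count + 1) over the 6 samples for each of the 289 miRNAs, with the members in red, leukocyte miRNAs in green and other miRNAs abundant in mammalian red blood cells in orange. The members lie between -3.69 and -2.65, below both blood lists, whose medians are -0.42 (leukocyte) and -0.31 (red blood cell).

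Per the study's methods, the authors kept miRNAs with at least 100 counts in every sample of one stage or the other, and no further filter was applied here. Set against the deposited values, miR-451, miR-144-5p and miR-2188-5p met this minimum in both stages. The minor products mir-451-p3, miR-144-3p and miR-2188-3p met it through stage IIIa only, the stage in which they are high. Their place in the list may therefore not be independent of their direction. By normalized counts 178 of the 289 miRNAs met the minimum, and by recovered reads 189. On either scale many listed miRNAs thus met it in neither stage, so how it was applied to the list could not be settled.

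By normalized count, the members also shared an order among the samples of a stage. In stage IIIb, replicate 1 was the highest and replicate 3 the lowest sample in 5 of the 6. In stage IIIa replicate 2 was the highest in 5 of the 6. On that scale miR-2188-3p was the exception in both stages. The order depends on the scaling. As percent of each sample's total, stage IIIa replicate 1 was the highest for both arms of miR-2188 and for miR-144-5p (0.0992%, 0.0974% and 0.0839%). By the same measure miR-2188-3p had the stage IIIb order of the others (0.000660%, 0.000652% and 0.000431%). Its values in replicates 1 and 2 rested on 17 and 21 reads, so the order of these samples is not settled. How many other miRNAs share these orders was not counted. The 3 hairpins together took 0.283%, 0.119% and 0.0904% of all normalized counts in stage IIIb, against 1.08%, 1.47% and 1.14% in stage IIIa. Within stage IIIb, replicate 1 had the lowest total over all miRNAs and the highest share of the 3 hairpins.

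The ratio of miR-451 to mir-451-p3, which does not depend on how a sample was scaled, was 33.9, 48.9 and 76.2 in stage IIIb, against 22.6, 27.9 and 21.8 in stage IIIa. Every stage IIIb sample was above every stage IIIa sample. The means were 53.0 ± 21.5 in stage IIIb and 24.1 ± 3.29 in stage IIIa (SD, n = 3 each), a shift of 1.07 on the log2 scale with a within-stage SD of 0.44. mir-451-p3 met the authors' minimum through stage IIIa only, so its place in the list may not be independent of this direction. Leaving out each sample in turn gave shifts between 0.76 and 1.35.

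As a share of the reads of both products, mir-451-p3 took 2.87% (95% Wilson interval 2.46 to 3.34), 2.01% (1.57 to 2.57) and 1.30% (1.06 to 1.59) in stage IIIb. In stage IIIa it took 4.23% (3.83 to 4.68), 3.46% (3.30 to 3.63) and 4.38% (4.17 to 4.60). The highest stage IIIb interval and the lowest stage IIIa interval overlapped slightly, and every other pair of intervals across the stages was apart. Within stage IIIb the intervals of replicates 1 and 3 were also apart. These intervals cover counting error only.

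The 5p to 3p ratio of miR-144 was 2.81, 3.09 and 3.17 in stage IIIb, against 5.41, 1.99 and 2.17 in stage IIIa. The stage IIIb samples were close together and lay inside the range of the stage IIIa samples. The means were 3.02 ± 0.186 in stage IIIb and 3.19 ± 1.93 in stage IIIa (SD, n = 3 each), a shift of 0.08 on the log2 scale with a within-stage SD of 0.57. Stage IIIa replicate 1 set most of that spread, since the shift without it was 0.54, with the stages then apart.

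In shares, miR-144-3p made up 26.2%, 24.4% and 24.0% of the reads of its hairpin in stage IIIb, against 15.6%, 33.4% and 31.6% in stage IIIa. The stage IIIb shares agree within their 95% Wilson intervals (23.1 to 29.6, 20.5 to 28.9 and 20.4 to 28.0). The interval of stage IIIa replicate 1 (13.8 to 17.7) met none of the other 5. miR-144 was the hairpin with the most even use of its arms, for the minor products of the other hairpins stayed at 5.97% or less.

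The 5p to 3p ratio of miR-2188 was 52.8, 17.8 and 16.4 in stage IIIb, against 15.8, 22.7 and 18.1 in stage IIIa. Here stage IIIb replicate 1 stood apart and the other 5 samples lay between 15.8 and 22.7. The shift was 0.42 on the log2 scale with a within-stage SD of 0.69, and -0.12 without stage IIIb replicate 1. miR-2188-3p took 1.86% (95% Wilson interval 1.16 to 2.96), 5.32% and 5.74% of its hairpin's reads in stage IIIb, against 5.97%, 4.22% and 5.24% in stage IIIa. The low share rested on 17 reads of miR-2188-3p, and its interval still met none of the other samples' intervals.

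Between the hairpins, the arms were summed. The ratio of miR-144 to miR-451 was 0.127, 0.132 and 0.0676 in stage IIIb, against 0.151, 0.127 and 0.137 in stage IIIa. The stages overlapped, with stage IIIb replicate 3 below the other samples, which lay between 0.127 and 0.151. The shift was -0.40 on the log2 scale, and between -0.57 and -0.09 with each sample left out in turn, the latter without stage IIIb replicate 3.

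The ratio of miR-2188 to miR-451 was 0.162, 0.130 and 0.0968 in stage IIIb, against 0.228, 0.151 and 0.140 in stage IIIa. The stages overlapped and the shift was -0.41 on the log2 scale, between -0.59 and -0.19 with each sample left out in turn. The ratio of miR-144 to miR-2188 was 0.784, 1.02 and 0.699 in stage IIIb, against 0.660, 0.842 and 0.979 in stage IIIa. It was the steadiest of the ratios, with means of 0.832 ± 0.164 in stage IIIb and 0.827 ± 0.160 in stage IIIa (SD, n = 3 each), a shift of 0.01 and a range of 1.54-fold over the 6 samples.

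**Figure D3:**
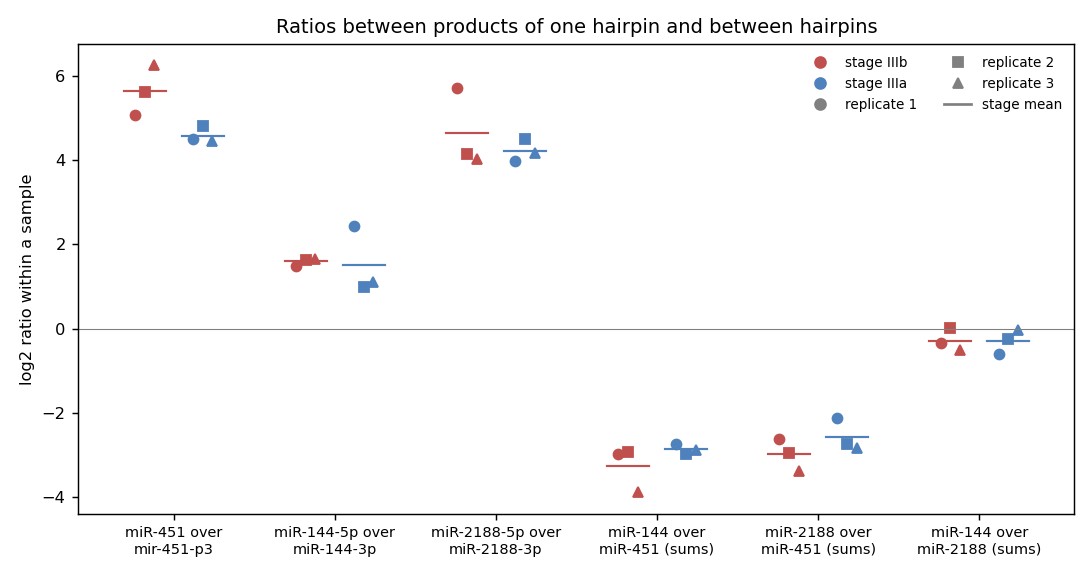
Log2 ratios within a sample between the products of each hairpin and between the summed hairpins, in the 3 stage IIIb (red) and the 3 stage IIIa (blue) samples, 1 point per sample and a line at the stage mean. The stages are apart only for miR-451 to mir-451-p3, and the ratio of miR-144 to miR-2188 keeps within 1.54-fold over the 6 samples.

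While the summed levels of miR-451, miR-144 and miR-2188 in stage IIIb were 15.6%, 12.9% and 12.7% of those in stage IIIa, the share of each in their sum overlapped between the stages. miR-451 took 77.6%, 79.3% and 85.9% of their sum in stage IIIb, against 72.5%, 78.3% and 78.3% in stage IIIa. miR-144 took 8.70% ± 2.52 in stage IIIb and 10.5% ± 0.528 in stage IIIa, and miR-2188 took 10.4% ± 2.13 in stage IIIb and 13.1% ± 3.03 in stage IIIa (SD, n = 3 each). The highest share of miR-451 and the lowest share of miR-144 and of miR-2188 were in stage IIIb replicate 3.

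Over all 15 pairs of members, the stages were apart in 3, each with mir-451-p3 on one side, a product that met the authors' minimum through stage IIIa only. These were its pairs with miR-451 and with the 5p arms of miR-144 and miR-2188, relative to which it fell by 0.68 and 0.64 on the log2 scale in stage IIIb. The 15 pairs share members and are not independent, and pairs of all listed miRNAs were not counted for comparison. Among 36 other hairpins with both products listed, matched by name, the stages were apart in 27.8%. That share is a background for the pair with miR-451 only, since the other pairs are between hairpins. With no background for those, the 3 pairs are not read as a trait of mir-451-p3. The pair of miR-144-5p and miR-2188-5p, from hairpins far apart on the chromosome, shifted by 0.04 with a within-stage SD of 0.23.

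Shifts between the products of a hairpin were common in these samples. Both products were listed, and above 0 in every sample, for 36 other zebrafish hairpins, with products matched by name and not by precursor. For some of them a further product of the same miRNA, with an added number in its name, is also listed. Such a ratio need not be of a single hairpin. The absolute log2 shift of the 36 between the stages had a median of 0.41 and a highest value of 1.16. In 10 of these 36 (27.8%) the stages were apart. With the members included, the shift of miR-451 ranked 3rd of 39, that of miR-2188 19th and that of miR-144 32nd. The product ratio of miR-451 thus lay near the upper end of the range of the other hairpins, as matched by name, and within it.

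**Figure D4:**
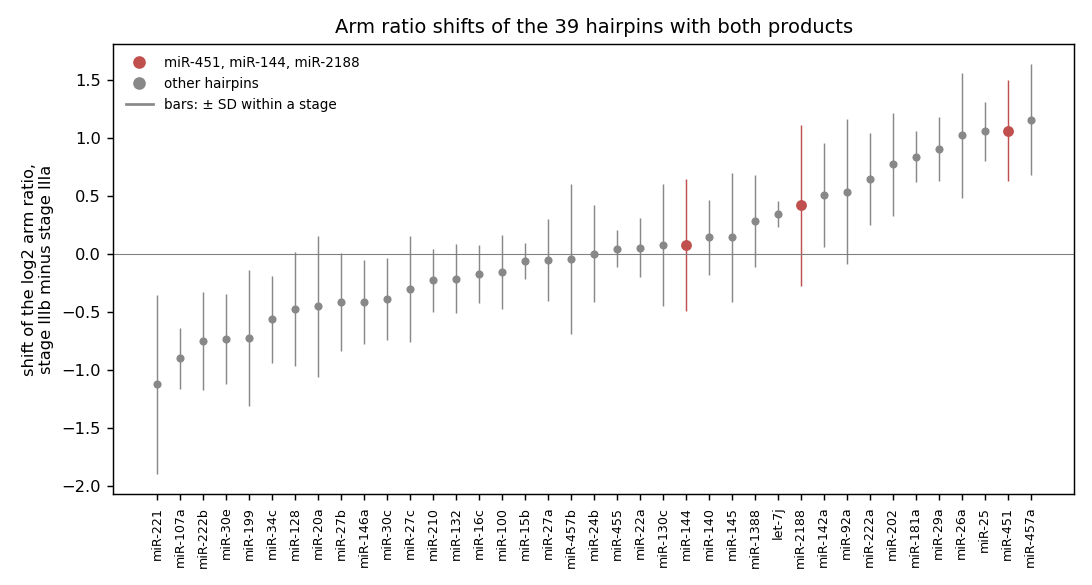
Shift of the log2 ratio of the 5′ to the 3′ product, stage IIIb minus stage IIIa, for the 39 hairpins with both products, in order of the signed shift, with the within-stage SD as a bar and the 3 member hairpins in red. miR-451 lies at 1.07 near the upper end, miR-2188 at 0.42 and miR-144 at 0.08, and the highest of the other hairpins is at 1.16. Products were matched by name, so some of the others need not be a single hairpin.

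miRNAs of other blood cells were read beside the members. Of 7 leukocyte miRNAs, 0 were called in either direction (limma adjusted p of 0.207 or more) and 1 had an unadjusted p under 0.05. Over all 289 miRNAs the shares were 4.5% and 14.9%, so these counts are not read as a result about leukocyte miRNAs. Of the 7, 6 had a negative log2 fold change and the median was -0.42. This median was -0.73 with equal totals, -0.10 without stage IIIb replicate 1 and -0.67 without stage IIIb replicate 3. Their summed level was 17048 to 36197 normalized counts in stage IIIb and 22745 to 30380 in stage IIIa. The largest part of it was miR-146a, with means of 15406 in stage IIIb and 14057 in stage IIIa. Its log2 fold change of 0.08 was the highest of the list, so the sum does not stand for the list as a whole. miR-142a-3p is a miRNA of all blood lineages in vertebrates, so it does not stand for leukocytes alone. It had 174.1, 217.5 and 351.3 normalized counts in stage IIIb, against 442.0, 479.6 and 530.2 in stage IIIa. Its stages did not overlap, but its log2 fold change of -1.02 (SE 0.38) did not pass the test (limma adjusted p = 0.207), though it did after rescaling to equal totals or by the median of ratios. Its other arm miR-142a-5p (-0.52, limma adjusted p = 0.591), miR-223 of myeloid cells (-0.50, limma adjusted p = 0.617) and miR-150 of lymphocytes (-0.31, limma adjusted p = 0.750) overlapped between the stages.

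A further list held miRNAs known to be abundant in mammalian red blood cells, such as miR-16, miR-92a and miR-25, which are also made by most other cells. Of these 10, 0 were called in either direction (limma adjusted p of 0.314 or more), 1 had an unadjusted p under 0.05, 7 had a negative log2 fold change and the median was -0.31. This median was -0.62 with equal totals, -0.48 by the median of ratios, -0.13 without stage IIIb replicate 1 and -0.48 without stage IIIb replicate 3. miR-16a had its stages apart, with 854.6, 856.5 and 939.1 normalized counts in stage IIIb, against 1231, 1481 and 1711 in stage IIIa. Its log2 fold change of -0.73 (SE 0.32) passed the test only after scaling by the median of ratios. This was the lowest value of the list, and the highest was miR-210-3p at 0.80 (limma adjusted p = 0.339). The related miR-16b (-0.51, limma adjusted p = 0.527) and miR-16c-5p (-0.29, limma adjusted p = 0.685) overlapped between the stages. Over all 289 miRNAs limma called 13 (4.5%), of which 7 (2.42%) passed as higher in stage IIIb. It left 43 (14.9%) with an unadjusted p under 0.05, so the counts over these 10 are not read as a result about the list. What part the amount of blood in the peeled layers had in the members' values was not tested.

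The profile of each miRNA over the 6 samples was compared with the mean profile of the members, as the root mean square difference of log2 values centred on their own mean. The members themselves, which make up this mean, were 0.17 (miR-144-5p) to 0.50 (miR-2188-3p) from it, so their distances are not comparable with those of other miRNAs. The nearest other miRNAs were the predicted PC-5p-22971_255 at 0.77, PC-5p-19218_304 at 1.02 and PC-3p-5289_1028 at 1.05, then miR-203b-3p at 1.09 and the predicted PC-5p-14802_390 at 1.10. PC-5p-22971_255 was rare, with 16.2, 6.64 and 4.55 normalized counts in stage IIIb, against 48.9, 29.1 and 24.7 in stage IIIa, and its log2 fold change of -1.91 did not pass the test (limma adjusted p = 0.332).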

How the data were processed

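Small RNA of 6 pools of follicular cells was sequenced, 3 per stage, and the pools are separate samples in the study's methods. The authors ran ACGT101-miR on the reads, mapped them to zebrafish precursors with one mismatch allowed, and deposited for each sample a signal of 289 miRNAs, the count divided by a library size parameter (normalized counts). Raw data were not analysed here. Reads were recovered from the step between low values. In a sample 82.8% to 85.9% of the values under 400 were whole within 0.01, and 74.5% to 77.2% of all values above 0. Recovered reads were therefore used for the members' intervals and depth, and not for a count test. The read totals and the 189 miRNAs that met the authors' minimum by recovered reads also rest on this step and are approximate.

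The stages were compared with limma 3.58.1 (R 4.3.3) on log2(normalized count + 1), with a mean-variance trend, two-sided, Benjamini-Hochberg adjusted over 289 miRNAs. The procedure was tested on simulated data in which every miRNA had the same SD. That test therefore does not cover the mean-variance trend of these data. Product ratios were taken without a pseudocount. Structures were predicted with RNAfold and RNAduplex of ViennaRNA 2.7.2, and Wilson intervals came from scipy 1.17.1. Sequences were read from the authors' supplementary tables, gene order from RefSeq.

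The members, the lists of leukocyte, red cell, endothelial, smooth muscle and fibroblast, liver, epithelial and gonadal miRNAs, and the tests were chosen with earlier results of these data known. miRNAs named besides the members were the miR-142a arms, miR-223 and miR-150, list members with an adjusted p under 0.05, the 5 nearest profiles and those sharing bases 2 to 7 with a member. PC-3p-77075_73, miR-16a and the highest and lowest of a list were named after their values were seen.

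The alternatives were 2 other pseudocounts, a filter on low values, 2 scalings, limma without the trend, with robust estimation or with the replicate number as a block, Student's t-test on untransformed counts, and each replicate left out. For ratios they were an added count, the ratio of stage means and the main arm alone.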

Additional observations from a re-analysis of the deposited data

How the results depend on the processing

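The 6 members called lower in stage IIIb stayed 6 under pseudocounts of 0.1 and 10, other scalings and robust or untrended limma. After rescaling 2 to 3 further miRNAs were called, and 1 without the trend. The members called were 5 with the filter at a mean of 100 (miR-2188-3p removed) and 5 without stage IIIa replicate 2 (miR-144-3p lost). Since the same contrast chose the members, the calls of members under these settings are a description and no support for their fall. With each replicate left out the count lower was 6 to 8 and the count higher 1 to 6, against 7. Student's t-test on untransformed counts with Benjamini-Hochberg adjustment gave 0 lower and 0 higher, with 16 and 16 at an unadjusted p under 0.05. The count higher was 3 without the trend. The log2 fold change of miR-2188-3p was -2.81 with a pseudocount of 10 and -3.71 with equal totals. No ratio between products or hairpins moved by more than its within-stage SD under any alternative, leave-one-out included. That SD includes the samples left out, so it is a wide measure and does not show that the ratios are stable. The miR-144 arm shift went from 0.08 to 0.54 without stage IIIa replicate 1. The miR-2188 arm shift went from 0.42 to -0.12 without stage IIIb replicate 1.

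The replicate numbers recur in both stages, and the labels and methods do not state whether same-numbered pools came from the same fish. Deviations of same-numbered samples over all miRNAs correlated by 0.103, 0.280 and -0.0336. With 3 samples per stage these correlations cannot settle whether the samples are paired. The main fit took the samples as unpaired. With the replicate block limma called 5 miRNAs lower, without miR-144-3p, and 4 higher.

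Depth limits the minor arms most, since miR-2188-3p rested on 17 to 39 reads in stage IIIb.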

Other observations

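Lists of miRNAs of the other cell types that a peeled follicle layer could hold had 0 called in either direction (limma adjusted p of 0.314 or more). In these lists 2 miRNAs, miR-122 and miR-200c-3p, had an unadjusted limma p under 0.05. Over all 289 miRNAs 4.5% were called and 14.9% had an unadjusted limma p under 0.05. With lists this small, the counts do not show that these cell types were unchanged. Of 4 endothelial miRNAs the median log2 fold change was 0.08, with miR-222a-3p lowest at -0.56 and miR-126b-5p highest at 0.45. Of 6 smooth muscle and fibroblast miRNAs it was -0.12, and of 2 gonadal miRNAs, both from miR-202, it was 0.04. With equal totals these medians were -0.23, -0.44 and -0.28 in the same order, and leaving out single replicates they ranged over -0.08 to 0.29, -0.43 to 0.07 and -0.12 to 0.21, so none has a settled sign. Epithelial miRNAs had a median of 0.54 over 8 (0.24 with equal totals, 0.12 without stage IIIa replicate 1, 0.13 without stage IIIb replicate 3 and 0.86 without stage IIIb replicate 2). Of these 8, 1 was lower and 1 higher in every stage IIIb sample than in every stage IIIa sample, miR-203b-3p (-1.08) and miR-141-3p (0.75). Over all 289 miRNAs the shares were 7.96% lower and 11.8% higher, so these 2 are not read as a result about epithelial miRNAs.

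Liver miRNAs varied widely between the samples of a stage. miR-192 had 4755, 25759 and 2422 normalized counts in stage IIIb, against 1552, 12674 and 5806 in stage IIIa, and replicate 2 of each stage was its highest sample. miR-122 had 164.6, 783.5 and 71.8 normalized counts in stage IIIb, against 0, 111.9 and 78.5 in stage IIIa. The median log2 fold change of the 3 liver miRNAs was 0.46, but -0.32 without stage IIIa replicate 1 and -0.52 without stage IIIb replicate 2, and up to 1.19 with another sample left out, so its sign rests on single samples.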
